A study of Mus musculus with 9 samples.

Results

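The unfolded protein response of the endoplasmic reticulum (ER) was examined through 34 genes, taken as the rows of the deposited count table whose symbol is on a fixed list of ER stress sensors, chaperones, disulfide isomerases, degradation factors and translocon subunits. All 34 were found among the 16876 genes of the table, and all 34 passed the filter on low counts, which kept 12212 genes. The study sequenced poly-A RNA of cultured natural killer (NK) cells in 3 groups of 3 libraries, starting from femur marrow of C57BL/6 mice. In SIS3_TGFb the Smad3 inhibitor SIS3 was present at 10 µM over 3 h, after which TGF-β1 was given (5 ng/mL, 3 h), and the titles of these samples name SIS3 alone. TGFb was the same TGF-β1 treatment with no inhibitor, and Ctrl was left untreated. All groups shared a first culture step of 4 days with IL-7, Flt3L, SCF and IL-15 and a further week with IL-15 and IL-2. The medium of both steps also held β-mercaptoethanol, a reducing agent, in all groups alike. The series has no group with SIS3 alone, and a solvent control is not named, so an effect of SIS3 or its solvent by itself cannot be told apart from an effect on the response to TGF-β1. The labels name no sort of the cells after culture and no separate mice or cultures for the replicates, so the p-values measure the spread between these libraries, which may be technical.

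Secreted and membrane proteins fold in the ER, and the unfolded protein response is the programme that cells switch on when folding falls behind. The membrane sensors IRE1 (encoded by Ern1), ATF6 and PERK (encoded by Eif2ak3) detect unfolded chains. IRE1 splices the mRNA of Xbp1 into the form that encodes an active transcription factor, ATF6 is cut free in the Golgi to become one, and PERK slows translation and favours production of ATF4. XBP1 and ATF6 raise chaperones, folding enzymes and the ER-associated degradation (ERAD) machinery, which pulls misfolded proteins back to the cytosol for the proteasome. In NK cells the same compartment makes the granzymes, perforin, cytokines and receptors that kill and signal.

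The DNA elements through which ATF6 and XBP1 act are known, and 28 of the 34 genes have an entry in the RefSeq promoter table (GRCm38.p6), which holds 250 bases before and 50 bases after each start. The ER stress response element (ERSE, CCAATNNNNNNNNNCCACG, searched on both strands) was found in 9 of these 28 genes (32.1%), against 37 of the 27025 genes of the table (0.137%). The related ERSE-II (ATTGG, any 1 base, then CCACG) was found in 2 of 28 (7.14%), Herpud1 and Dnajb11, against 12 of 27025 (0.0444%). The ERSE was first described from promoters of human genes that include HSPA5, HSP90B1 and CALR, so its presence here is a description of known targets. Stretches of 6 promoters are shown, with the ERSE-II of Herpud1 and the ERSE of Hspa5, Hsp90b1, Calr, Canx and Creld2. All 6 genes fell in TGFb versus Ctrl, where 16.4% of all genes tested fell. In SIS3_TGFb versus TGFb, 21.2% of all genes rose and 20.6% fell. For SIS3_TGFb versus TGFb, Herpud1, Hspa5 and Canx rose, Calr fell, and Hsp90b1 and Creld2 did not pass. They lie at chr8:94386367-94386397 (plus strand) for Herpud1, chr2:34772015-34772053 (plus) for Hspa5, chr10:86705523-86705666 (minus) for Hsp90b1, chr8:84847065-84847103 (minus) for Calr, chr11:50325790-50325828 (minus) for Canx and chr15:88819510-88819548 (plus) for Creld2. Each reads 5′ to 3′ on the strand of its gene, and capitals mark the fixed letters of the matches. An ERSE on the opposite strand reads CGTGG and then ATTGG. The ATTGG of Herpud1 belongs to an ERSE-II on the strand of the gene.
Herpud1: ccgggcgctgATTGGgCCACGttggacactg
Hspa5: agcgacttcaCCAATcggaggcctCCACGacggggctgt
Hsp90b1: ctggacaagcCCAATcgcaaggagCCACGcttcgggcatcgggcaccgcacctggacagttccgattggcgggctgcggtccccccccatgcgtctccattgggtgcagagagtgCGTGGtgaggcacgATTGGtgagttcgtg
Calr: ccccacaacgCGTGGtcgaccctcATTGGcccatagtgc
Canx: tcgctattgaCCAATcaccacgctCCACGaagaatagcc
Creld2: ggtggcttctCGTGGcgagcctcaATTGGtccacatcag
The Herpud1 match lies 52 to 42 bases before the start and the Hspa5 match 65 to 47 bases before it. Hsp90b1 holds 2 matches, on opposite strands. The other genes with an ERSE were Dnajc3, Pdia6, Syvn1 and Derl3. Of these, Pdia6 and Syvn1 fell in TGFb versus Ctrl, and Dnajc3 and Derl3 did not pass.

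The libraries held 15714973 to 16718673 expected counts each, and the 34 genes together took 0.943% to 1.03% of them. NK cell transcripts were abundant in all groups. The 10 NK markers summed to 15060 to 15310 CPM (counts scaled to equal library size with TMM factors) in SIS3_TGFb, 13740 to 15090 CPM in TGFb and 18260 to 19360 CPM in Ctrl. Plasma cells, the classic cells with a large ER, left little trace, since 1 of 6 B and plasma cell markers passed the filter (Sdc1) and Jchain was at 0 in 8 of 9 libraries. That list summed to 8.21 to 14.3 CPM in SIS3_TGFb, 8.85 to 11.3 CPM in TGFb and 7.0 to 9.18 CPM in Ctrl. Macrophage and monocyte markers, with 6 of 6 tested, summed to 677 to 1146 CPM in SIS3_TGFb, 597 to 956 CPM in TGFb and 849.9 to 1136 CPM in Ctrl, with the highest sum in SIS3_TGFb replicate 3 and the lowest in TGFb replicate 3. Dendritic cell markers, with 3 of 5 tested, summed to 394 to 702 CPM in SIS3_TGFb, 356 to 569 CPM in TGFb and 449 to 624 CPM in Ctrl, with the same libraries at the ends. Mast cell and basophil markers (6 of 6 tested) summed to 447 to 522 CPM over all libraries, but Kit was higher (0.39 ± 0.058 in TGFb and 0.56 ± 0.058 in SIS3_TGFb, both over Ctrl) while Cpa3 (-0.73 ± 0.1 and -1.16 ± 0.1) and Mcpt8 (-0.20 ± 0.056 and -0.43 ± 0.056) were lower. The basophil gene Prss34 stood at 3.46 CPM in TGFb replicate 3, against 34.2 and 21.1 CPM in the other TGFb libraries, and Fcer1a was at 0 there. T cell markers (6 of 6 tested) summed to 7.79 to 21.9 CPM and neutrophil markers (2 of 5) to 1.2 to 8.46 CPM. TGFb replicate 3 lay apart from its group on the second principal component (19.2% of the variance), at -30.4 against -15.2 and -17.7. Counts given below without these 2 libraries show what rests on them, and the part of macrophage, dendritic, mast cell and basophil transcripts in the results was not tested.

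Before any comparison, the genes differed widely in level. Per kilobase of exon (all GENCODE M21 exons of a gene merged, GRCm38), Ctrl cells held the most transcript for calreticulin (Calr), a calcium-binding lectin chaperone, at 553 ± 11.2 CPM per kb (SD, n = 3). It was followed by the disulfide isomerase Pdia3 at 319 ± 2.57, the degradation lectin Os9 at 265 ± 12.2 and the isomerase P4hb at 256 ± 5.8 CPM per kb, and the ranges of Os9 and P4hb overlapped. The chaperones Hsp90b1 (GRP94, 209 ± 7.06) and Hspa5 (BiP, 179 ± 4.46) came next. At the low end stood the sensors Atf6 at 7.06 ± 0.257 and Ern1 at 5.33 ± 0.248 CPM per kb. Derl3, a derlin of ERAD, was barely detected, at 3 to 14 expected counts per library. Of the 33 pairs of neighbours in this order, 13 overlapped in the Ctrl libraries. Merged exons can be longer than the transcripts present, so the order also depends on the annotation.

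TGFb versus Ctrl addressed the effect of TGF-β1 alone. More of the genes fell than rose, most of them by small amounts. Herpud1 and Atf6 fell furthest, and 5 of the 9 genes of BiP and its partners fell. Of 34 genes tested by edgeR's quasi-likelihood test, 12 fell (35.3%) and 5 rose (14.7%), at an adjusted p below 0.05 over all genes. Among all 12212 genes tested 16.4% fell and 17.9% rose, 34.3% in all. The median log2 change was -0.07 for the 34 genes and 0 for all genes. The median size of change, regardless of sign, was 0.1 on the log2 scale for the genes of the response and 0.16 for all genes. In bulk RNA a lower level in fewer cells and less RNA per cell cannot be told apart. With upper-quartile scaling the split was 16 fallen and 2 risen. Between 9 and 12 genes fell when 1 library was left out, but the count of rises was 1 without Ctrl replicate 2, 2 without TGFb replicate 3 and 3 without TGFb replicate 2 or Ctrl replicate 3.

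Herpud1, a ubiquitin-like protein that assembles the ERAD complex, fell furthest. It stood at 29.9, 30.6 and 30.6 CPM in TGFb, against 46.9, 44.7 and 46.1 CPM in Ctrl, a log2 change of -0.60 ± 0.051 (SE, adjusted p = 1.5e-07). All 3 TGFb libraries lay below all Ctrl libraries. Edem1, a lectin that hands misfolded glycoproteins to ERAD, went the other way, with 618, 623 and 652 CPM in TGFb against 384, 378 and 384 CPM in Ctrl (0.72 ± 0.036, adjusted p = 2e-10). Herpud1 and Edem1 are the only genes of the 34 besides Atf6 that passed with a change of at least 0.32 in log2 size, the minimum fold of an alternative rule. By that rule 8.11% of all genes fell and 10.7% rose.

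The sensor genes moved apart. Atf6 had 51.7, 53.6 and 48.5 CPM in TGFb against 67.8, 63.1 and 64.6 CPM in Ctrl and fell by 0.35 (SE 0.05, adjusted p = 4.4e-05). Ern1 had 48.7, 49.7 and 54.5 CPM in TGFb against 45.8, 41.8 and 43.1 CPM in Ctrl and rose by 0.22 ± 0.067 (adjusted p = 0.016). The groups did not overlap for either gene, but the Ern1 call ended without TGFb replicate 3 (adjusted p = 0.067) and without Ctrl replicate 2 (0.067). Xbp1, at 102, 105 and 97.2 CPM in TGFb against 108, 106 and 109 CPM in Ctrl, did not pass (-0.09 ± 0.041, adjusted p = 0.1). Counts per gene do not separate spliced from unspliced Xbp1.

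BiP, the abundant Hsp70 chaperone of the ER lumen encoded by Hspa5, stood at 641, 691 and 666 CPM in TGFb against 737, 773 and 764 CPM in Ctrl (-0.19 ± 0.038, adjusted p = 0.001). Hsp90b1, its Hsp90 partner, had 695, 746 and 713 CPM in TGFb against 809, 855 and 861 CPM in Ctrl (-0.23 ± 0.037, adjusted p = 0.00014). Of the 9 genes of BiP and its partners, 5 fell and 4 did not pass, where 16.4% of all genes tested fell. The others that fell were Hyou1 (-0.16 ± 0.035), an exchange factor for BiP, the co-chaperone Dnajb11 (-0.13 ± 0.041) and Creld2 (-0.27 ± 0.06), a secreted ER protein. Dnajb9, Dnajc3, Sdf2l1 and Manf did not pass, at -0.08 to 0.08. Of the disulfide isomerases and relatives Pdia4 (-0.20 ± 0.036) and Pdia6 (-0.15 ± 0.039) fell and 4 did not pass, at -0.09 to 0.04. Calr (-0.15 ± 0.036) and its membrane-bound relative Canx (-0.09 ± 0.033) fell. The Dnajb11 call (adjusted p = 0.025) ended without TGFb replicate 1 or 2 or Ctrl replicate 1 or 3, at 0.058 to 0.14. The Canx call (adjusted p = 0.047) ended in 10 of 18 alternatives, among them each single TGFb or Ctrl library left out except TGFb replicate 3.

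In ERAD, 3 of 10 genes rose, 2 fell and 5 did not pass, where 17.9% of all genes tested rose and 16.4% fell. Beside Edem1 and Herpud1, Edem2 (0.13 ± 0.037) and Selenos, a selenoprotein of the ERAD complex (0.11 ± 0.041), rose, and the ubiquitin ligase Syvn1 (HRD1) fell (-0.12 ± 0.039). The Selenos call held in 3 of 18 alternatives. The Edem2 call ended without TGFb replicate 3, Ctrl replicate 2 or Ctrl replicate 3 (adjusted p = 0.062, 0.055 and 0.053). It also ended with upper-quartile factors (0.074) and in DESeq2 (0.051). The Syvn1 call ended without TGFb replicate 3, Ctrl replicate 1 or Ctrl replicate 3 (0.098, 0.056 and 0.082) and in DESeq2 (0.083). Among the translocon genes Ssr1 rose (0.12 ± 0.039), and Sec61a1, Sec61b and Ssr3 did not pass, at -0.06 to 0.03. The Ssr1 call ended without TGFb replicate 2 (adjusted p = 0.12) and without Ctrl replicate 2 (0.09). It also ended with upper-quartile factors (0.1) and without scaling factors (0.056). For 22 of the 34 genes (64.7%) TGFb and Ctrl libraries were fully separate, against 45% of all genes.

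**Figure D1:**
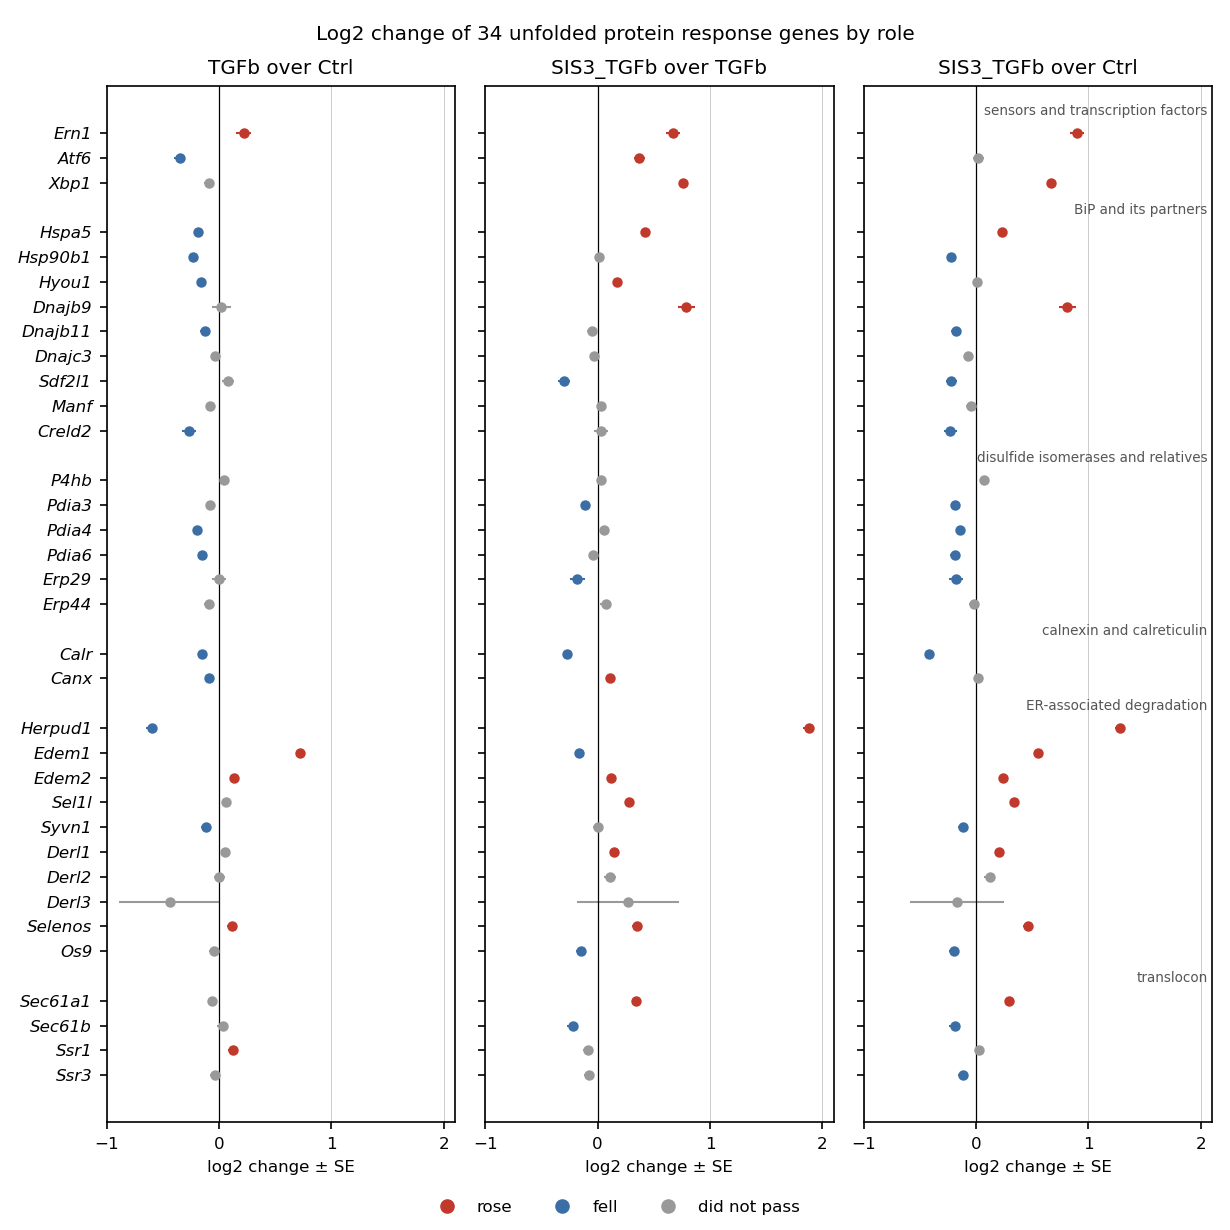
Log2 change (x axis, points with SE bars) of the 34 genes, grouped by role down the page, in each of the 3 comparisons, with genes that rose in red, fell in blue and did not pass in grey. In TGFb over Ctrl most points lie within 0.3 of zero apart from Edem1 (0.72), Herpud1 (-0.60), Atf6 (-0.35) and the sparse Derl3, and in SIS3_TGFb over TGFb the sensors, Dnajb9 and Herpud1 stand to the right while most isomerases stay near zero.

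SIS3_TGFb versus TGFb addressed the effect of SIS3 under TGF-β1. Among the 34 genes, the 3 sensor and transcription factor genes (Ern1, Xbp1 and Atf6), part of the ERAD machinery and a few chaperones rose. Calr, Pdia3, Erp29, Sdf2l1, Edem1, Os9 and Sec61b fell by 0.30 or less on the log2 scale. The PERK gene Eif2ak3, which is not among the 34, did not pass (0.10 ± 0.041). Of the 34 genes 13 rose (38.2%) and 7 fell (20.6%), against 21.2% and 20.6% of all genes tested (41.8% in all). With a log2 size of at least 0.32 as well, 8 of them rose and none of the 7 that fell was counted, against 12.7% and 7.22% of all genes. The median log2 change was 0.05 for the 34 genes and 0.01 for all genes. Without scaling factors the split was 18 risen and 4 fallen, and over all genes 71.1% of calls were then rises, against 50.6% with TMM. Without SIS3_TGFb replicate 3 there were 13 risen and 6 fallen, and without TGFb replicate 3 there were 13 and 7.

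Herpud1 showed the largest rise of the 34 genes and the 44th largest of 12212. It stood at 113, 116 and 106 CPM in SIS3_TGFb against 29.9, 30.6 and 30.6 CPM in TGFb, a 3.67-fold difference (log2 1.88 ± 0.048, adjusted p = 6.5e-13). Its lowest SIS3_TGFb library was above every TGFb and every Ctrl library.

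All 3 genes of the group of sensors and transcription factors rose, where 21.2% of all genes tested rose. Xbp1 had 177, 173 and 164 CPM in SIS3_TGFb against 102, 105 and 97.2 CPM in TGFb (0.76 ± 0.04, adjusted p = 1e-09). Ern1 had 86.4, 83.9 and 73.5 CPM in SIS3_TGFb against 48.7, 49.7 and 54.5 CPM in TGFb (0.67 ± 0.063, adjusted p = 6.1e-07). Atf6 had 68.2, 66.5 and 64.0 CPM in SIS3_TGFb against 51.7, 53.6 and 48.5 CPM in TGFb (0.37 ± 0.049, adjusted p = 2.5e-05). The groups did not overlap for any of these genes, and SIS3_TGFb replicate 3 was the lowest of its group for each. Its macrophage marker sum, 1146 CPM against 735 and 677 CPM, was the highest of that group, and a link to these gene levels was not tested.

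BiP and its partners split. Dnajb9 (ERdj4), a J protein that guides BiP and is a known target of XBP1, had 48.2, 47.9 and 42.8 CPM in SIS3_TGFb against 30.1, 26.2 and 24.0 CPM in TGFb (0.79 ± 0.076, adjusted p = 8.6e-07). Hspa5 had 910.4, 892 and 864 CPM in SIS3_TGFb against 641, 691 and 666 CPM in TGFb (0.42 ± 0.038, adjusted p = 4.3e-07). Hyou1 rose by 0.17 ± 0.035. Sdf2l1, which partners BiP to keep folding clients soluble, fell instead, with 52.2, 59.1 and 54.5 CPM in SIS3_TGFb against 65.0, 70.0 and 69.2 CPM in TGFb (-0.30 ± 0.051, adjusted p = 0.00024). For these 4 genes the SIS3_TGFb and TGFb libraries did not overlap. Hsp90b1, at 727, 727 and 714 CPM in SIS3_TGFb against 695, 746 and 713 CPM in TGFb, did not pass (0.01 ± 0.037, adjusted p = 0.85). Creld2 (0.03 ± 0.061), Manf (0.03 ± 0.038), Dnajc3 (-0.03 ± 0.035) and Dnajb11 (-0.05 ± 0.042) did not pass either.

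**Figure D2:**
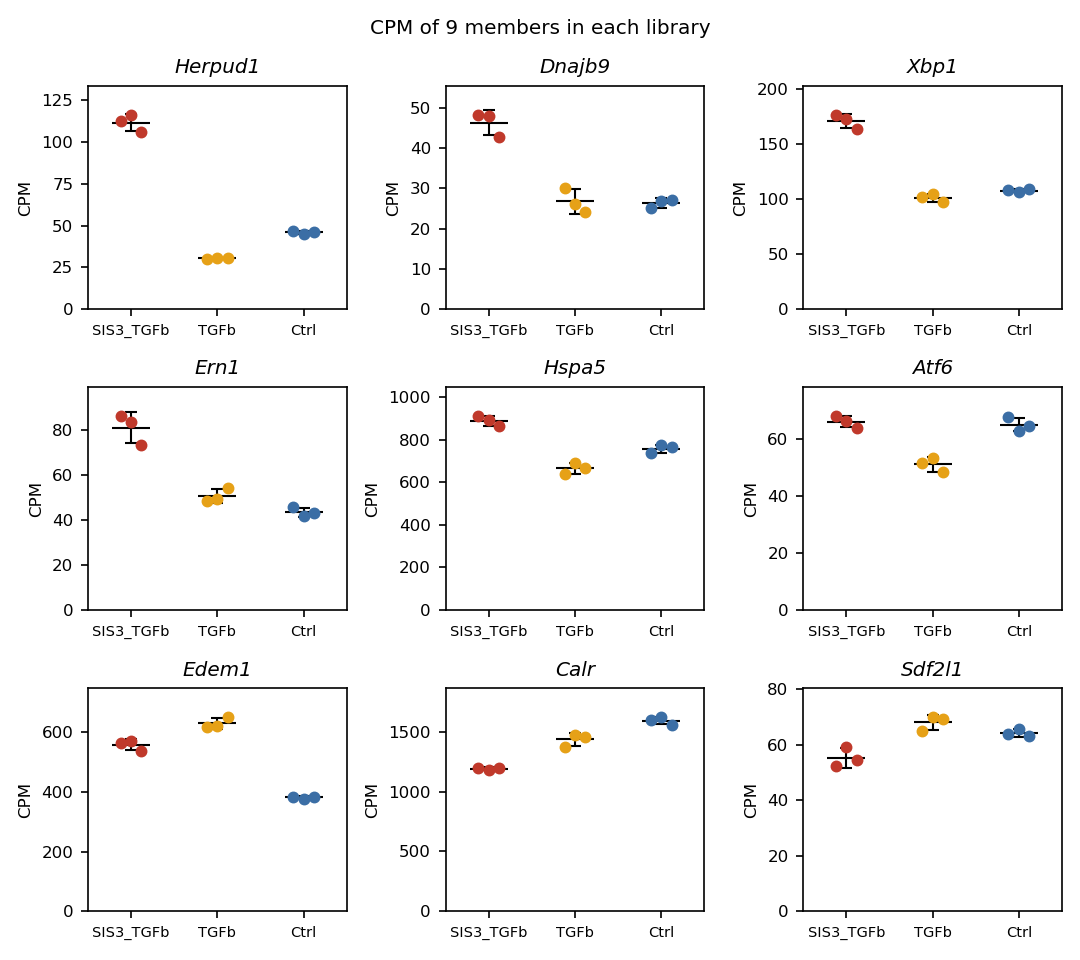
CPM (y axis, from zero) of 9 genes in each library of SIS3_TGFb (red), TGFb (yellow) and Ctrl (blue), with the mean and SD over 3 libraries as a black bar. Herpud1, Dnajb9, Xbp1, Ern1 and Hspa5 are highest in SIS3_TGFb, Edem1 is highest in TGFb, Calr is lowest in SIS3_TGFb, and Atf6 is lowest in TGFb.

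The folding enzymes changed little. Of 6 disulfide isomerases and relatives, 2 fell and 4 did not pass, where 20.6% of all genes tested fell. Pdia3 (ERp57), which works with calnexin and calreticulin, had 883, 867 and 888 CPM in SIS3_TGFb against 944, 955 and 953 CPM in TGFb (-0.11 ± 0.031, adjusted p = 0.0089), which did not pass when scaling factors were left out (adjusted p = 0.47). Erp29 fell by 0.18 (SE 0.066), but its libraries overlapped, and the call ended without TGFb replicate 2 or 3 (adjusted p = 0.063 and 0.18), without SIS3_TGFb replicate 2 or 3 (0.082 and 0.092) and in 2 further alternatives. Erp29 also shares 24.4% of its exon bases with Naa25 on the opposite strand, and the labels do not say that the counting used strand. P4hb (0.03 ± 0.034), Pdia4 (0.06 ± 0.036), Pdia6 (-0.04 ± 0.039) and Erp44 (0.07 ± 0.045), which retrieves clients from the Golgi, did not pass. Calr had 1201, 1179 and 1195 CPM in SIS3_TGFb against 1374, 1477 and 1458 CPM in TGFb (-0.27 ± 0.036, adjusted p = 2.5e-05), while Canx rose by 0.11 ± 0.033, with 563, 559 and 552 CPM in SIS3_TGFb against 507, 517 and 527 CPM in TGFb. The libraries of the lectin pair did not overlap between the groups, and the Canx call ended without TGFb replicate 1 (adjusted p = 0.051).

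In ERAD, 5 of 10 genes rose, 2 fell and 3 did not pass, where 21.2% of all genes tested rose and 20.6% fell. Beside Herpud1, Selenos had 169, 167 and 162 CPM in SIS3_TGFb against 125, 134 and 133 CPM in TGFb (0.35 ± 0.041, adjusted p = 6.4e-06). Sel1l, the adaptor of the HRD1 ligase, had 217, 213 and 211 CPM in SIS3_TGFb against 178, 179 and 174 CPM in TGFb (0.28 ± 0.034, adjusted p = 9.2e-06). Derl1, a channel subunit, rose by 0.15 ± 0.035 and Edem2 by 0.12 ± 0.037. The Edem2 call ended without TGFb replicate 1 or 2 or SIS3_TGFb replicate 1 or 2 (adjusted p = 0.064 to 0.086) and in DESeq2 (0.097). The ligase Syvn1 itself was at 77.2, 78.6 and 76.5 CPM in SIS3_TGFb against 78.1, 79.6 and 74.6 CPM in TGFb and did not pass (0.00 ± 0.039). Edem1 fell, with 566, 573 and 538 CPM in SIS3_TGFb against 618, 623 and 652 CPM in TGFb (-0.17 ± 0.036, adjusted p = 0.0011), and so did Os9 (-0.15 ± 0.04), which did not pass with scaling factors left out (adjusted p = 0.14). Derl2 (0.11 ± 0.05), whose counts were not whole numbers in 7 of 9 libraries, and Derl3 (0.27 ± 0.45) did not pass. At the translocon the pore subunit Sec61a1 rose, with 241, 236 and 241 CPM in SIS3_TGFb against 182, 186 and 197 CPM in TGFb (0.34 ± 0.038, adjusted p = 3.2e-06). Its small partner Sec61b fell, with 121, 116 and 120.3 CPM in SIS3_TGFb against 129, 137 and 150.4 CPM in TGFb (-0.22 ± 0.049, adjusted p = 0.002). The translocon-associated subunits Ssr1 (-0.09 ± 0.039) and Ssr3 (-0.08 ± 0.038) did not pass. SIS3_TGFb and TGFb libraries were fully separate for 19 of the 34 genes (55.9%), against 51.4% of all genes.

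SIS3_TGFb versus Ctrl gives where the genes stood after both agents. It shares libraries with each comparison above, so it is no independent evidence of either. Of the 34 genes 11 rose (32.4%) and 13 fell (38.2%), against 29% and 24.9% of all genes tested (53.9% in all), with a median log2 change of 0 for the 34 genes and 0.02 for all genes. With no scaling factors the split was 14 risen and 9 fallen, and without SIS3_TGFb replicate 3 it was 11 and 11. By the rule with a minimum log2 size of 0.32, 7 rose, against 20.2% of all genes. Herpud1 had 113, 116 and 106 CPM in SIS3_TGFb against 46.9, 44.7 and 46.1 CPM in Ctrl (1.28 ± 0.045, adjusted p = 2.1e-12). Ern1 (0.90 ± 0.064), Dnajb9 (0.81 ± 0.076), Xbp1 (0.67 ± 0.04), Edem1 (0.55 ± 0.036), Selenos (0.46 ± 0.041), Sel1l (0.34 ± 0.034), Sec61a1 (0.29 ± 0.037), Edem2 (0.24 ± 0.037), Hspa5 (0.23 ± 0.037) and Derl1 (0.20 ± 0.035) were also higher in SIS3_TGFb. These are 2 of the 3 sensor and factor genes, 6 of 10 ERAD genes, 2 of 9 genes of BiP and its partners and 1 translocon gene.

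Atf6 (0.02 ± 0.048), Hyou1 (0.01 ± 0.035) and Canx (0.02 ± 0.032) did not pass, with overlapping libraries in each case. Atf6, for example, stood at 68.2, 66.5 and 64.0 CPM in SIS3_TGFb against 67.8, 63.1 and 64.6 CPM in Ctrl. Calr and 12 other genes were lower in SIS3_TGFb, while P4hb, also abundant, did not pass (0.07 ± 0.034). Calr, at 1201, 1179 and 1195 CPM in SIS3_TGFb against 1599, 1623 and 1559 CPM in Ctrl, fell by 0.42 (SE 0.036, adjusted p = 8.2e-08) and was the 1 gene of the 34 that fell by at least 0.32, against 12.9% of all genes. Hsp90b1 (-0.22 ± 0.037), Creld2 (-0.23 ± 0.059), Sdf2l1 (-0.22 ± 0.051), Dnajb11 (-0.18 ± 0.041), Pdia3 (-0.19 ± 0.031), Pdia6 (-0.19 ± 0.039), Pdia4 (-0.14 ± 0.035) and Erp29 (-0.18 ± 0.065) fell as well. So did Os9 (-0.20 ± 0.04), Sec61b (-0.19 ± 0.049), Ssr3 (-0.12 ± 0.038) and Syvn1 (-0.12 ± 0.039). The calls for Erp29, Pdia4, Syvn1 and Ssr3 ended when scaling factors were left out. Without 1 library, the Erp29 call ended for SIS3_TGFb replicates 2 and 3 and Ctrl replicate 1 (adjusted p = 0.068, 0.078 and 0.12), the Ssr3 call for SIS3_TGFb replicate 3 and Ctrl replicate 3 (0.058 and 0.059), and the Syvn1 call for Ctrl replicate 3 (0.05). Hsp90b1 shares 10.3% of its exon bases with a pseudogene on the opposite strand. SIS3_TGFb and Ctrl libraries were fully separate for 26 of the 34 genes (76.5%), against 61.1% of all genes.

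**Figure D3:**
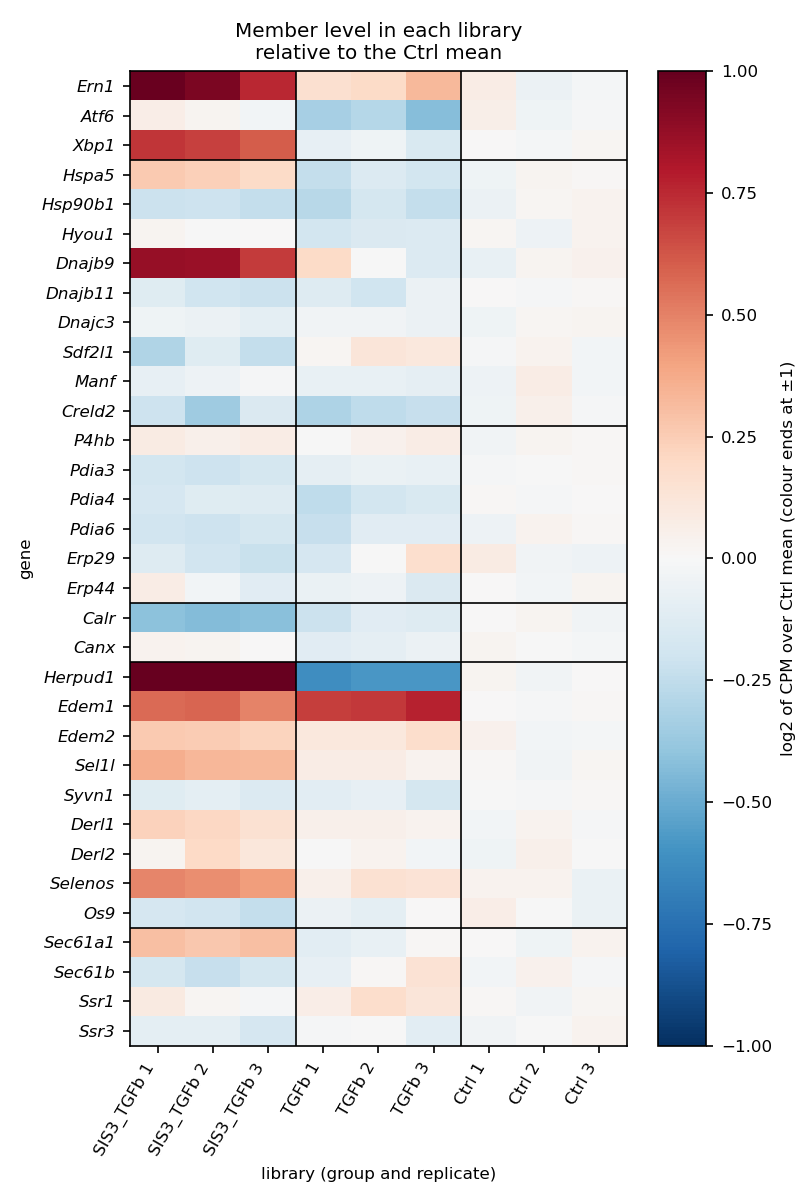
Level of 33 genes (rows, grouped by role between black lines) in each library (columns), as the log2 of its CPM over the mean of the Ctrl libraries, with the colour scale ending at 1 in both directions and Derl3 left out for its 3 to 14 counts. The Ern1, Xbp1, Dnajb9 and Herpud1 rows are red in the SIS3_TGFb libraries, the Herpud1 row is blue in the TGFb libraries, and Edem1 is red in both treated groups.

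Summed over the groups by role, the sensor and factor genes came to 331, 323 and 302 CPM in SIS3_TGFb, 202, 208 and 200.1 CPM in TGFb and 222, 211 and 217 CPM in Ctrl. BiP and its partners came to 2423, 2398 and 2352 CPM in SIS3_TGFb, 2085, 2188 and 2136 CPM in TGFb and 2336, 2434 and 2433 CPM in Ctrl. The ranges of the SIS3_TGFb and Ctrl sums overlapped here, and the TGFb sums lay below both. Calnexin and calreticulin came to 1765, 1738 and 1747 CPM in SIS3_TGFb, 1880.0, 1994 and 1984 CPM in TGFb and 2159, 2170.0 and 2100.0 CPM in Ctrl, without overlap between groups. The ERAD genes came to 2122, 2121 and 2035 CPM in SIS3_TGFb, 2022, 2023 and 2088 CPM in TGFb and 1850.0, 1803 and 1777 CPM in Ctrl, with overlap between SIS3_TGFb and TGFb. These sums are led by their most abundant genes, Edem1 and Os9 in the last case, and no test was made of them.

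The genes were also read by their promoters. Of the 11 genes with an ERSE or ERSE-II, 9 fell in TGFb versus Ctrl and 2 did not pass (Dnajc3 and Derl3), with a median log2 change of -0.15, where 16.4% of all genes tested fell and 17.9% rose. Of the 17 genes with a promoter entry and neither element, 1 fell, 5 rose and 11 did not pass, with a median of 0.03. Among the 9 falls, the calls for Canx, Dnajb11 and Syvn1 held in 8, 14 and 14 of 18 alternatives. Among the 5 rises, only the Edem1 call held in all 18. In SIS3_TGFb versus TGFb the 11 genes split into 3 risen (Herpud1, Hspa5 and Canx), 1 fallen (Calr) and 7 that did not pass (median 0.01), and the other 17 into 6 risen, 5 fallen and 6 that did not pass (median 0.06), where 21.2% of all genes rose and 20.6% fell. In SIS3_TGFb versus Ctrl the 11 genes gave 2 risen, 6 fallen and 3 not passed, and the other 17 gave 7, 6 and 4, where 29% of all genes rose and 24.9% fell. Of the promoters shown above, Hspa5 rose and Hsp90b1 did not pass in SIS3_TGFb versus TGFb. In SIS3_TGFb versus Ctrl, Hspa5 rose and Hsp90b1 fell. These are counts over chosen genes with no test of the difference, and a match of letters is not a shown binding site.

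**Figure D4:**
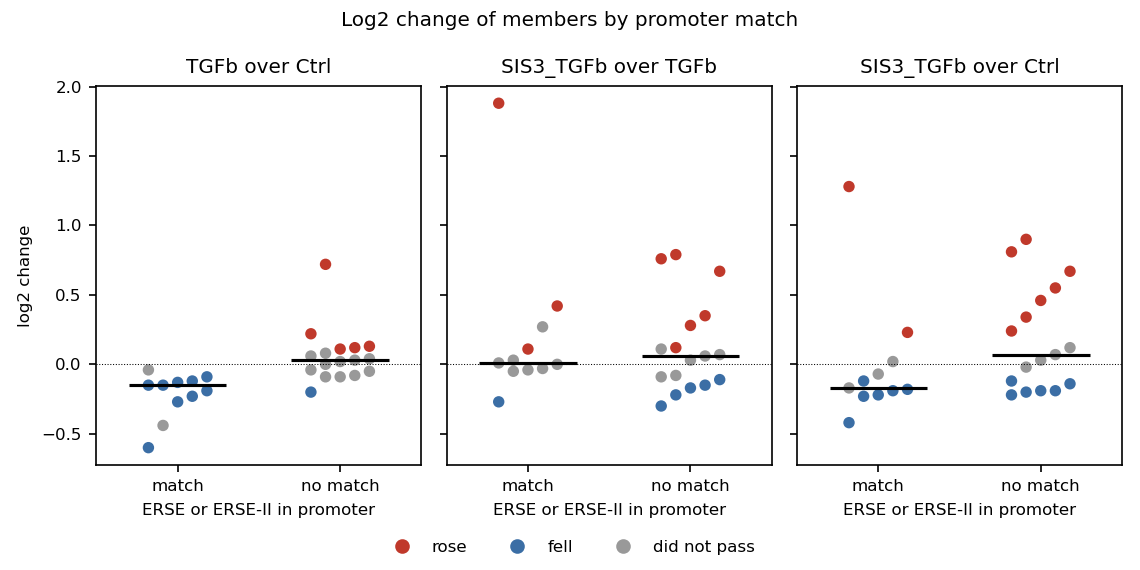
Log2 change (y axis) of the 28 genes with a promoter entry, split into the 11 with an ERSE or ERSE-II match and the 17 without, in each of the 3 comparisons, with the median as a black bar and colours as in the plot of changes by role. In TGFb over Ctrl all points of the genes with a match lie below zero, and in SIS3_TGFb over TGFb Herpud1 stands alone at 1.88.

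Further motifs were searched in the same windows on both strands. The end of the ERSE, CCACG, which the ERSE and ERSE-II contain, was present in 25 of 28 genes (89.3%), against 35.5% of all genes in the table. The core of the XBP1 element, TGACGTG, was found in Hspa5 alone (3.57%), against 2.22% of all genes. The element bound by ATF4 with C/EBP partners, TGATGNAAT, had no match among the 28 genes, against 1.08% of all genes, which says only that these letters are not in these windows. A SMAD-type element, CAGACA, was in Dnajb11 and Derl2 (7.14%), against 23.6% of all genes. Atf6, Hyou1, Manf, Erp29, Derl1 and Sec61a1 were not part of this search.

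Genes of the same compartment outside the 34 were counted from 8 further lists with 127 genes tested. In TGFb versus Ctrl 30 of them fell, 20 rose and 77 did not pass (median -0.01), where 16.4% of all genes fell and 17.9% rose. In SIS3_TGFb versus TGFb 41 rose, 24 fell and 62 did not pass (median 0.06), where 21.2% of all genes rose and 20.6% fell. In SIS3_TGFb versus Ctrl 49 rose, 31 fell and 47 did not pass (median 0.05), where 29% of all genes rose and 24.9% fell. The lists that follow are read against these shares. Of the 9 other sensors and factors, 3 fell and 1 rose in TGFb versus Ctrl, with the PERK gene Eif2ak3 among the falls (-0.55 ± 0.041). Eif2ak3 did not pass in SIS3_TGFb versus TGFb (0.10 ± 0.041) and was lower in SIS3_TGFb than in Ctrl (-0.45 ± 0.041). For SIS3_TGFb versus TGFb this list split into 2 risen, 3 fallen and 4 that did not pass. The ER-anchored factors Nfe2l1 (1.36 ± 0.038) and Creb3l2 (1.11 ± 0.075) rose, and Mbtps2 (-0.30 ± 0.052) and Rtcb (-0.17 ± 0.038) were among the falls. Creb3l2 had 30.4, 28.7 and 26.2 CPM in SIS3_TGFb against 12.4, 13.4 and 13.7 CPM in TGFb. Of 10 genes listed for the PERK arm, 7 rose in SIS3_TGFb versus TGFb, among them Ddit3, which encodes CHOP (2.71 ± 0.072), and Atf4 (1.02 ± 0.038). Trib3 (-1.44 ± 0.046) and Chac1 (-1.26 ± 0.11) fell. RNA levels do not measure the activity of PERK, and its part in these changes was not tested. In TGFb versus Ctrl, which shares the TGFb libraries, 3 of the 10 rose and 4 fell, with Trib3 (3.37 ± 0.057) and Chac1 (1.48 ± 0.11) among the rises and Atf4 (-0.38 ± 0.038) and Ddit3 (-0.35 ± 0.085) among the falls. Trib3 had 35.7, 37.7 and 36.2 CPM in SIS3_TGFb, 97.8, 101 and 97.9 CPM in TGFb and 10.0, 9.74 and 8.95 CPM in Ctrl, so that it was still higher in SIS3_TGFb than in Ctrl (1.93 ± 0.062). Chac1 did not pass in SIS3_TGFb versus Ctrl (0.23 ± 0.13). Atf4 had 522, 497 and 492 CPM in SIS3_TGFb against 251, 238 and 254 CPM in TGFb.

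Chaperones and foldases outside the 34 were divided like those inside. Over all genes, 21.2% rose and 20.6% fell in SIS3_TGFb versus TGFb, and 17.9% rose and 16.4% fell in TGFb versus Ctrl. Of 26 tested, 7 rose and 7 fell in SIS3_TGFb versus TGFb, among them rises of the translocon stabiliser Serp1 (0.54 ± 0.046) and the oxidase Ero1a (0.31 ± 0.041) and falls of Sdf2 (-0.31 ± 0.05), a relative of Sdf2l1, and Mesd (-0.28 ± 0.047). In TGFb versus Ctrl 7 fell and 2 rose, and the falls with the smallest p were those of the oxidases Ero1a (-0.47 ± 0.041) and Ero1b (-0.39 ± 0.052). Of 25 other ERAD genes, 8 rose and 5 fell in SIS3_TGFb versus TGFb. Erlin1 (1.07 ± 0.067) rose, and Edem3 (-0.65 ± 0.044), another gene of the Edem family, and the ATPase Vcp (-0.30 ± 0.031) fell. Edem3 had 55.1, 53.0 and 50.3 CPM in SIS3_TGFb against 80.3, 84.4 and 83.2 CPM in TGFb, and it had also fallen in TGFb versus Ctrl (-0.35 ± 0.041), where Edem1 rose. Of 22 translocon, signal peptidase and signal recognition particle genes, 9 rose and 13 did not pass in SIS3_TGFb versus TGFb, with Srp54b (0.36 ± 0.04), which has near-identical copies that can share reads, and the signal peptidase subunit Sec11a (0.26 ± 0.047) having the smallest p.

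The remaining lists changed in both directions. So did all genes, with 21.2% risen and 20.6% fallen in SIS3_TGFb versus TGFb, and 17.9% and 16.4% in TGFb versus Ctrl. Of 11 oligosaccharyltransferase genes, 3 rose and 3 fell in SIS3_TGFb versus TGFb, with Ostc (0.20 ± 0.043) and Dad1 (-0.44 ± 0.043) as examples. Of 11 genes of glycan trimming 2 rose and 1 fell, Mcfd2 at 0.32 ± 0.053 and Man1a at -0.35 ± 0.042. Of 13 COPII export genes 3 rose and 3 fell, with Sec24d at 0.20 ± 0.043 and Sec24c at -0.20 ± 0.037. In TGFb versus Ctrl 5 of the COPII genes fell and 2 rose, with Sec23b at -0.24 ± 0.04 and Sec24a at 0.37 ± 0.046.

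**Figure D5:**
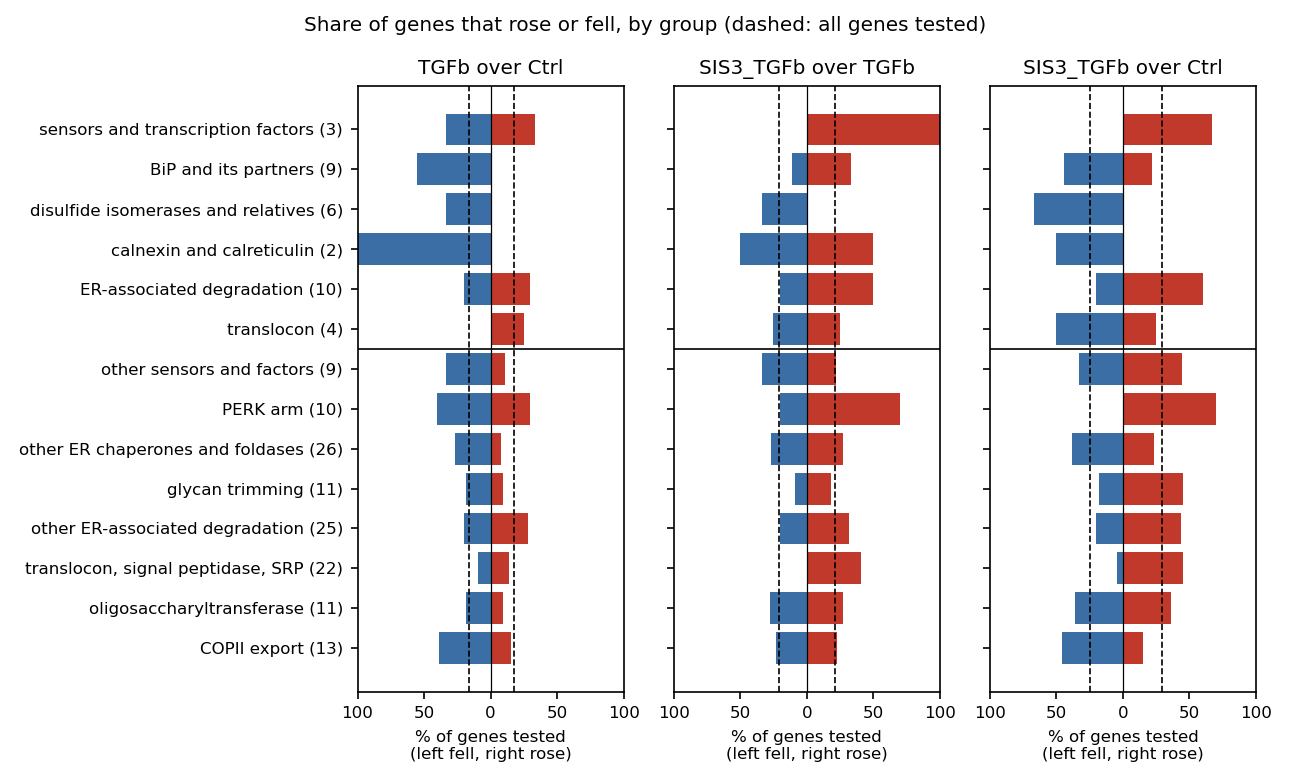
Share of the genes tested (x axis, percent, number tested in brackets) that rose (red, to the right) or fell (blue, to the left) in each comparison, for the 6 groups of the 34 genes above the line and the 8 further lists below it, with the shares over all 12212 genes as dashed lines. All 3 sensor and factor genes of the 34 rose in SIS3_TGFb over TGFb, and 7 of 10 genes listed for the PERK arm did.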

How the data were processed

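The values are expected counts by gene, unscaled, in 1 table as the authors deposited it, where 10.2% to 11.1% of the values of a library were not whole numbers. Per the submitters' processing notes, the tools were Bowtie2, RSEM, HISAT2, StringTie, Cufflinks and also DESeq2, and the builds mm10 and GRCm38. Versions, the role of each tool and the gene annotation were not given in the sources used here. Read pairs of 100 bp came from a DNBseq instrument, per the labels. Expected counts were rounded, filtered with filterByExpr (minimum count 10, minimum total 15), scaled with TMM factors and fitted for all 9 libraries with 1 mean per group by glmQLFit and glmQLFTest of edgeR 4.0.16 (R 4.3.3). Two-sided p-values received Benjamini-Hochberg adjustment across all 12212 genes, and rose or fell means an adjusted p below 0.05. An SE was obtained by dividing the absolute log2 change by the square root of F. The test was checked only on counts simulated with its own fitted spread, so that check cannot vouch for the calls on the real counts. Members, lists and tests were chosen with earlier results of these data known. Named genes are all 34 members and, per further list and comparison, at most the 2 with the smallest p in each direction. The 18 alternatives are other scalings, filters, tools (DESeq2 1.42.0, limma 3.58.1 voom), designs and left-out libraries. No replicate pair differed by less than sampling noise.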

Additional observations from a re-analysis of the deposited data

How the results depend on the processing

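Of the calls on the 34 genes, 10 of 17 in TGFb versus Ctrl, 15 of 20 in SIS3_TGFb versus TGFb and 20 of 24 in SIS3_TGFb versus Ctrl held in all 18 alternatives, and no called change reversed its sign in any of them. In TGFb versus Ctrl, 5 genes rose, against 2 with upper-quartile factors, 3 without scaling factors and 3 in DESeq2, and 1 to 5 when 1 library was left out (1 without Ctrl replicate 2, 2 without TGFb replicate 3, and 3 without TGFb replicate 2 or Ctrl replicate 3). In SIS3_TGFb versus TGFb, 7 fell, against 4 without scaling factors. With a minimum log2 size of 0.32, 1 gene rose and 2 fell in TGFb versus Ctrl (2298 of all genes changed), 8 rose and 0 fell in SIS3_TGFb versus TGFb (2433), and 7 rose and 1 fell in SIS3_TGFb versus Ctrl (4040), because this rule adds a condition. The 7 falls in SIS3_TGFb versus TGFb passed edgeR's test without that minimum and numbered 7 in DESeq2. The cause of the other shifts was not tested. The labels do not say whether the replicate numbers pair the libraries. Deviations from the group means correlated at -0.15 to 0.13 between libraries of the same number and at -0.16 to 0.15 between others. Of 9 libraries, 2 correlated best with their own number. No pairing was seen, but with 3 libraries per group these values cannot exclude it. With the replicate block, 4 genes rose and 11 fell in TGFb versus Ctrl, 13 and 6 in SIS3_TGFb versus TGFb and 12 and 13 in SIS3_TGFb versus Ctrl. Among the 34 genes depth limits Derl3 most, with 3 to 14 expected counts per library.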
